A study of Mus musculus with 28 samples.

Results

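A set of 7 genes of the red cell programme was followed in mouse thymocytes that carried an Lmo2 transgene, with or without Ldb1, the partner of Lmo2. The set holds the transcription factors Gata1, Klf1, Nfe2 and Gfi1b, the heme synthesis enzyme Alas2, the transferrin receptor Tfrc and the red cell anion exchanger Slc4a1. They were found by gene symbol, and all 7 are among the 24421 symbols of the count table. Of these, 6 passed the filter on low counts that left 14371 genes for testing, and Slc4a1 did not. The RNA-seq libraries number 28 and fall into 6 groups, 3 genotypes at each of 2 stages of thymocytes that lack CD4 and CD8 (double-negative, DN), DN4 and the earlier DN2/3. At each stage, 5 libraries were from Lmo2tg; Ldb1-KO mice (Ldb1-KO from here on, though these cells carry the Lmo2 transgene too), 5 from Lmo2tg mice with Ldb1 intact, and 4 from wild-type C57BL/6 mice. The Ldb1-KO and Lmo2tg groups therefore share the transgene and differ in Ldb1, and the wild type has neither change. The labels name 3 Cre lines, Lck-Cre, Rag1-Cre and IL-7Ra-Cre, and a floxed Ldb1 allele, but the sources used here do not say which Cre deleted Ldb1 in which library, which promoter drives the transgene, or how old and of which sex the mice were. A Cre may thus be a further difference between Ldb1-KO and Lmo2tg, and its effect and the loss of Ldb1 cannot be told apart here. The label for cell type reads CD4 T cells although the subsets named are double-negative, and the design text counts 4 Ldb1-KO replicates where the sample titles give 5. The labels do not tie replicates to separate animals. A p-value here therefore weighs a difference against the spread among the samples at hand, which may be technical. The wild-type libraries carry another pattern of library names than the rest, so a library series and the wild-type genotype cannot be told apart.

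Lmo2 is an adaptor without DNA-binding activity of its own. In erythroid cells it links Ldb1 to Gata1 and to E-box factors such as Tal1, and this complex sits at many genes of the red cell programme, several of the 7 among them. Gata1, Klf1, Nfe2 and Gfi1b are the regulators of that programme, Alas2 makes the erythroid share of the first heme precursor, Tfrc brings in iron for it, and Slc4a1 is a main protein of the red cell membrane. Thymocytes use Gata3, Gfi1 and Alas1 in place of Gata1, Gfi1b and Alas2, while Tfrc is used by dividing cells of most kinds. The comparisons ask what the transgene does to these genes in thymocytes and which of its effects need Ldb1.

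Promoter sequence was at hand for 5 of the 7 genes, and the 3 shown here are those in which a GATA word was found, one gene that rose with the transgene and did not fall without Ldb1 (Alas2), one that fell without Ldb1 (Gfi1b) and one that passed no genotype test (Klf1). Each is the 250 bases before the RefSeq start of the gene on GRCm38.p6, 5′ to 3′ on the strand of the gene, with the GATA word (GATA with A or T before it and A or G after it, on either strand) in capitals. Alas2 is read from chrX:150547167-150547416 on the plus strand, Gfi1b from chr2:28621983-28622232 on the minus strand, and Klf1 from chr8:84901732-84901981 on the plus strand.
Alas2: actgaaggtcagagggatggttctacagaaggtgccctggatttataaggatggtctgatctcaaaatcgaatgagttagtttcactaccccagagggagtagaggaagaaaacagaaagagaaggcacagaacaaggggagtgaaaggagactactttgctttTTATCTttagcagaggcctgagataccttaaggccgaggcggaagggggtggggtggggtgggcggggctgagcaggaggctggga
Gfi1b: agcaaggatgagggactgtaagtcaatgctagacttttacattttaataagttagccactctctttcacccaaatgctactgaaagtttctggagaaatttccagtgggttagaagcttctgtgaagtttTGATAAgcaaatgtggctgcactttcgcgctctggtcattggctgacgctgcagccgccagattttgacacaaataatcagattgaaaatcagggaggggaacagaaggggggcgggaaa
Klf1: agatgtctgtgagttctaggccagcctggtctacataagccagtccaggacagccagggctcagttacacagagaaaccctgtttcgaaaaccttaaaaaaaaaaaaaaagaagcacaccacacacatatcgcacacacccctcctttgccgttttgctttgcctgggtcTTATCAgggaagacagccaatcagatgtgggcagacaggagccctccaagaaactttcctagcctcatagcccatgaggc
The Alas2 window holds the GATA word at 86 to 81 bases before the start, on the opposite strand, followed by 3 copies of the CACCC box on that strand between 40 and 26 bases before the start. In the Gfi1b window the GATA word lies at 120 to 115 bases before the start and is also the end of the composite word CTGNNNNNNNNNGATA, an E-box part followed by GATA. The Klf1 window holds its GATA word at 80 to 75 bases on the opposite strand, overlapping the composite word with 1 base less between its parts, CTGNNNNNNNNGATA, and an E-box (CAGNTG) at 59 to 54. A CACCC box is also in the Gfi1b window at 184 to 180 bases and in the Klf1 window at 114 to 110, both on the printed strand. Such words are common by themselves. Among 32851 promoters of the same length, 26.5% held a GATA word, 44.8% an E-box and 52.0% a CACCC box on either strand, while the composite words were in 2.16% and 1.91%. No GATA word is in the windows of Gata1 (start at 7967910 on chromosome X) or of either start of Tfrc. Nfe2 and Slc4a1 had no entry. A match describes letters and shows no binding.

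The libraries held 28.1 to 107 M counts in all, and levels are given as CPM, counts scaled to the size of each library. The transgene was seen in its own transcript: Lmo2 averaged 45.4 CPM in Ldb1-KO DN4, 45.1 in Lmo2tg DN4 and 0.0778 in wild-type DN4. Ldb1 averaged 25.6 CPM in Ldb1-KO DN4 and 98.1 in Ldb1-KO DN2/3, against 345 and 397 CPM in Lmo2tg, so Ldb1 RNA that remained was higher at the earlier stage. T lineage genes (11 markers, Cd3e, Lck and Bcl11b among them) summed to 8498 to 9742 CPM in Ldb1-KO DN4, 7604 to 9232 in Lmo2tg DN4 and 9317 to 10191 in wild-type DN4. Of red cell transcripts, the adult globins Hba-a2, Hbb-bs, Hbb-bt and Hbb-b1 had no count in any library, and Hba-a1 had 3 counts, all in Ldb1-KO DN4. The sources used here do not say how reads that match several similar genes were counted. The lack of adult globin counts therefore does not show that red cell RNA was absent. The 12 erythrocyte markers found in the table summed to 4.47 to 11.7 CPM in Ldb1-KO DN4, 5.12 to 15.8 in Lmo2tg DN4 and 3.88 to 5.58 in wild-type DN4. Of the DN4 libraries, Lmo2tg replicate 1 and Ldb1-KO replicate 2 had the most Cd4 (422 and 329 CPM), which DN cells should lack. Results that rest on them are given without them below.

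Per kilobase of exon, the only scale on which levels of different genes are set beside each other here, Tfrc had the highest mean in every group, at 61.8 CPM per kb in Ldb1-KO DN4, 73.0 in Lmo2tg DN4 and 50.5 in wild-type DN4. Nfe2 came next in Lmo2tg DN4 (29.4 ± 24.8, SD, n = 5) and Alas2 after it (4.97 ± 2.56). In Ldb1-KO DN4, Alas2 (6.99 ± 3.54) and Nfe2 (6.82 ± 6.35) stood side by side and did not differ beyond their spread. Gata1 was at 0.659 ± 0.269, 2.04 ± 1.37 and 0.453 ± 0.162 CPM per kb in Ldb1-KO, Lmo2tg and wild-type DN4. Gfi1b and Klf1 stayed under 1 CPM per kb in all 6 groups, and Slc4a1 never averaged above 0.0129. In wild-type DN4 the means of Gfi1b (0.570), Gata1 (0.453), Nfe2 (0.340), Alas2 (0.287) and Klf1 (0.277) lay close together, and neighbours in this order did not differ beyond their spread. In DN2/3 the order was Tfrc, Nfe2, Gata1 and Gfi1b in all 3 genotypes, with Tfrc (68.5 ± 20.4) and Nfe2 (50.6 ± 23.9) within their spread in Lmo2tg. Nfe2 averaged 34.3 CPM per kb in Ldb1-KO and 12.7 in wild type there, Gata1 1.80, 2.67 and 1.61 in Ldb1-KO, Lmo2tg and wild type, and Gfi1b 0.963, 0.794 and 0.597. Alas2 (0.509, 0.372 and 0.324) and Klf1 (0.317, 0.565 and 0.410) came next, above Slc4a1, with Alas2 above Klf1 in Ldb1-KO and below it in Lmo2tg and wild type.

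**Figure D1:**
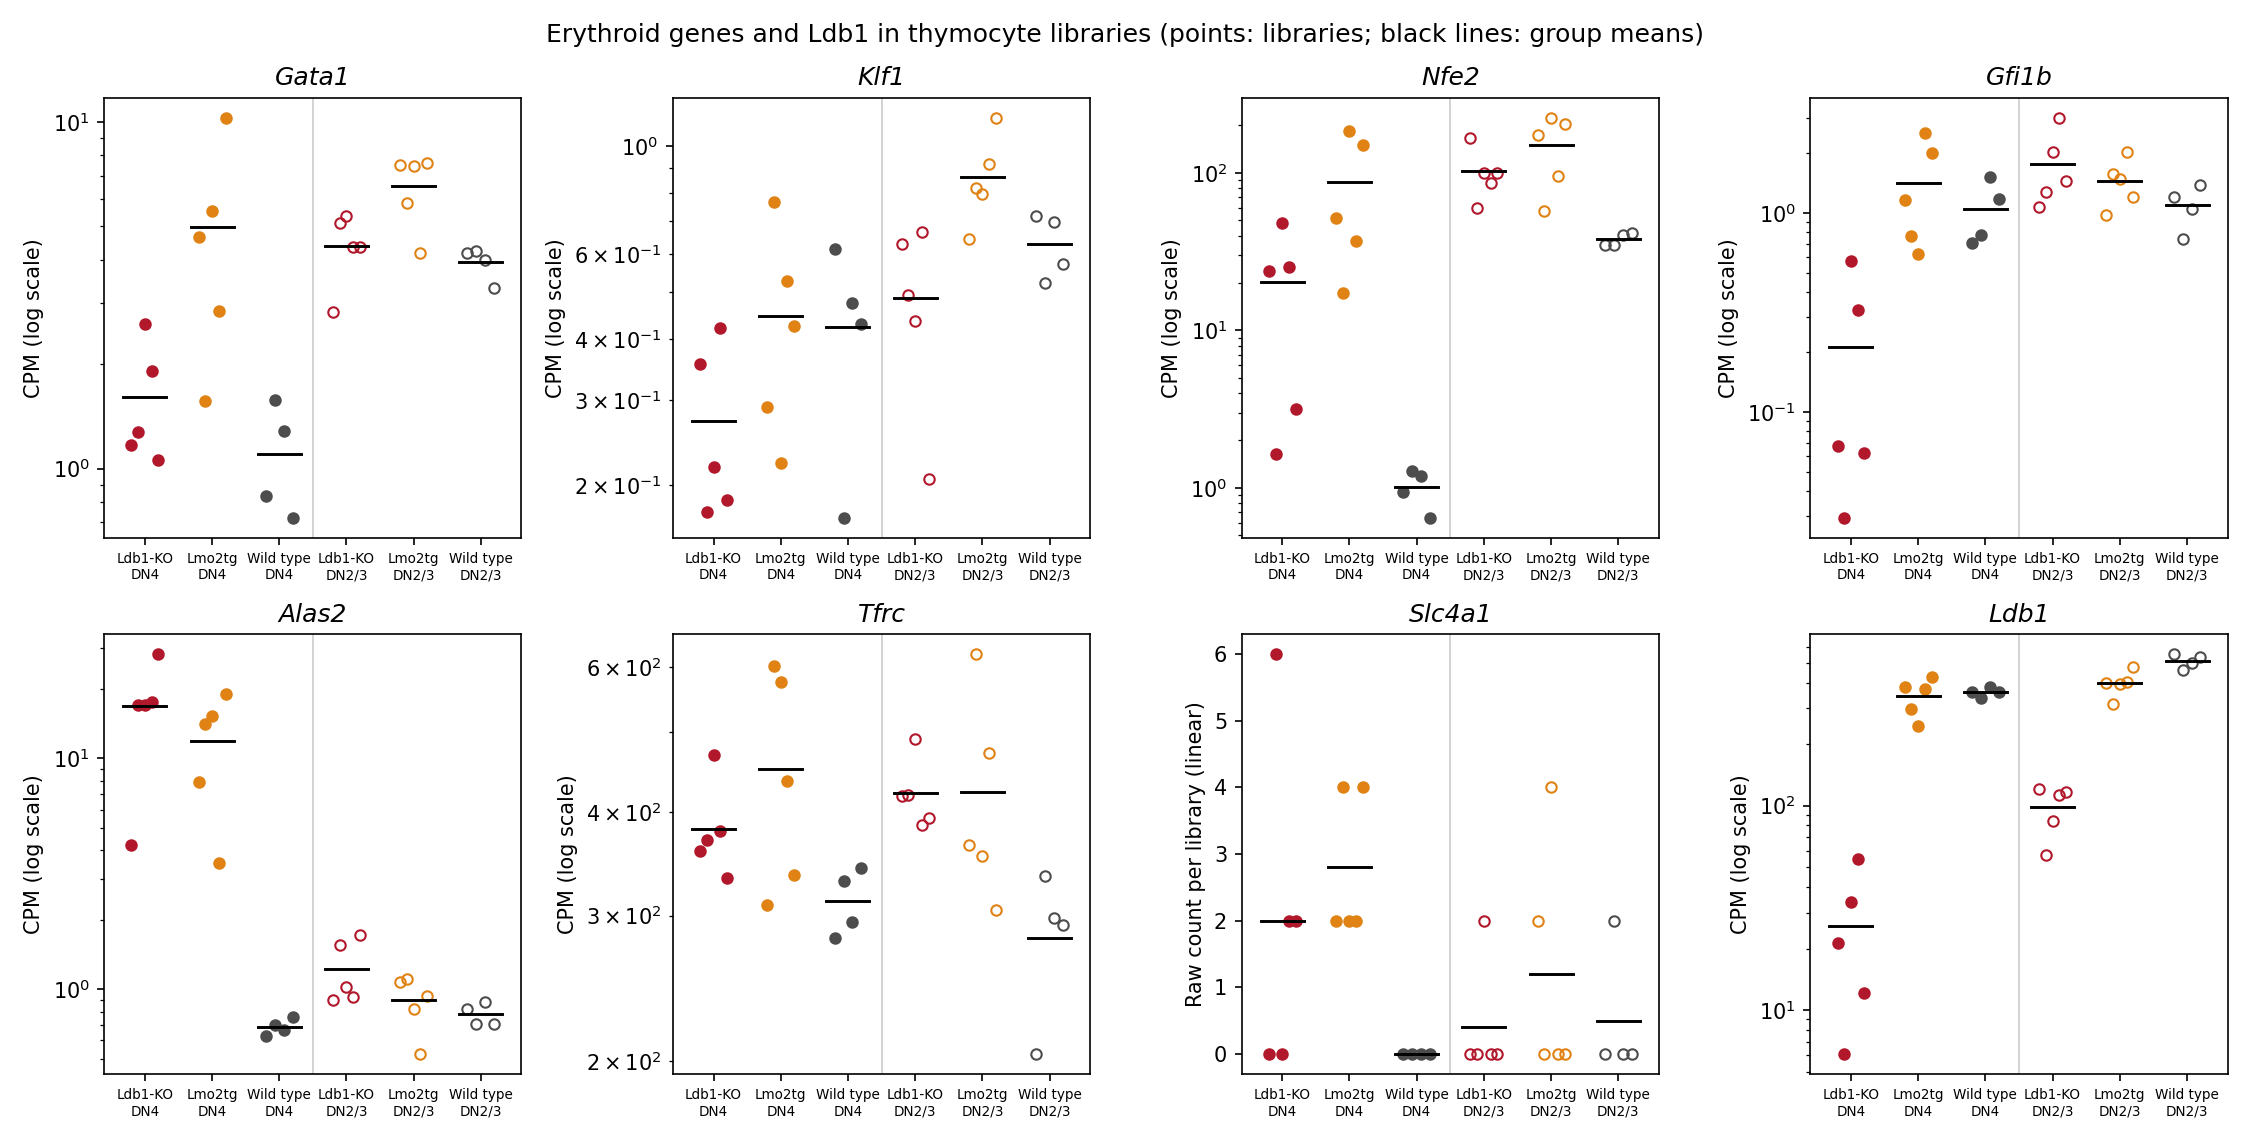
CPM of the 7 genes and of Ldb1 in each library on a log axis (Slc4a1 as raw counts on a linear axis), with DN4 groups as filled points, DN2/3 groups as open points and a black line at each group mean. Nfe2 and Alas2 in Lmo2tg DN4 lie above all 4 wild-type DN4 libraries, and Gfi1b in Ldb1-KO DN4 (0.0294 to 0.571 CPM) lies below all 5 Lmo2tg DN4 libraries (0.623 to 2.54 CPM).

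With the transgene, 4 of the 6 genes tested rose in DN4 over wild type, Nfe2, Alas2, Gata1 and Tfrc, and none fell, where 28.9% of all genes tested rose and 23.5% fell. In DN2/3, 2 of the 6 rose, Nfe2 and Tfrc, where 15.1% of all genes rose and 14.4% fell. Without Ldb1, 3 of the 6 were lower in DN4 than with the transgene alone, Gfi1b, Nfe2 and Gata1, where 8.71% of all genes fell, and none was higher, where 5.85% were. In DN2/3, Ldb1-KO against Lmo2tg gave no call among the 6, where 16.1% of all genes were called, 8.87% higher and 7.22% lower. These are calls of edgeR. DESeq2 also called none of the 6 there, and Klf1 alone had an unadjusted p under 0.05 (0.0327). Set against wild type, Ldb1-KO DN4 was higher in Nfe2 and Alas2 and lower in Gfi1b (32.6% of all genes called, 18.2% higher and 14.4% lower), and in Ldb1-KO DN2/3 none of the 6 passed the test (9.56% of all genes did, 6.98% higher and 2.58% lower), where DESeq2 called 1, Tfrc, and the unadjusted p was under 0.05 for 2, Tfrc and Nfe2. These comparisons share samples, Lmo2tg in one pair and wild type in another, so the values below are given side by side for each. In bulk RNA, fewer cells that make a transcript and less of it per cell cannot be told apart, and this holds for all values here.

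**Figure D2:**
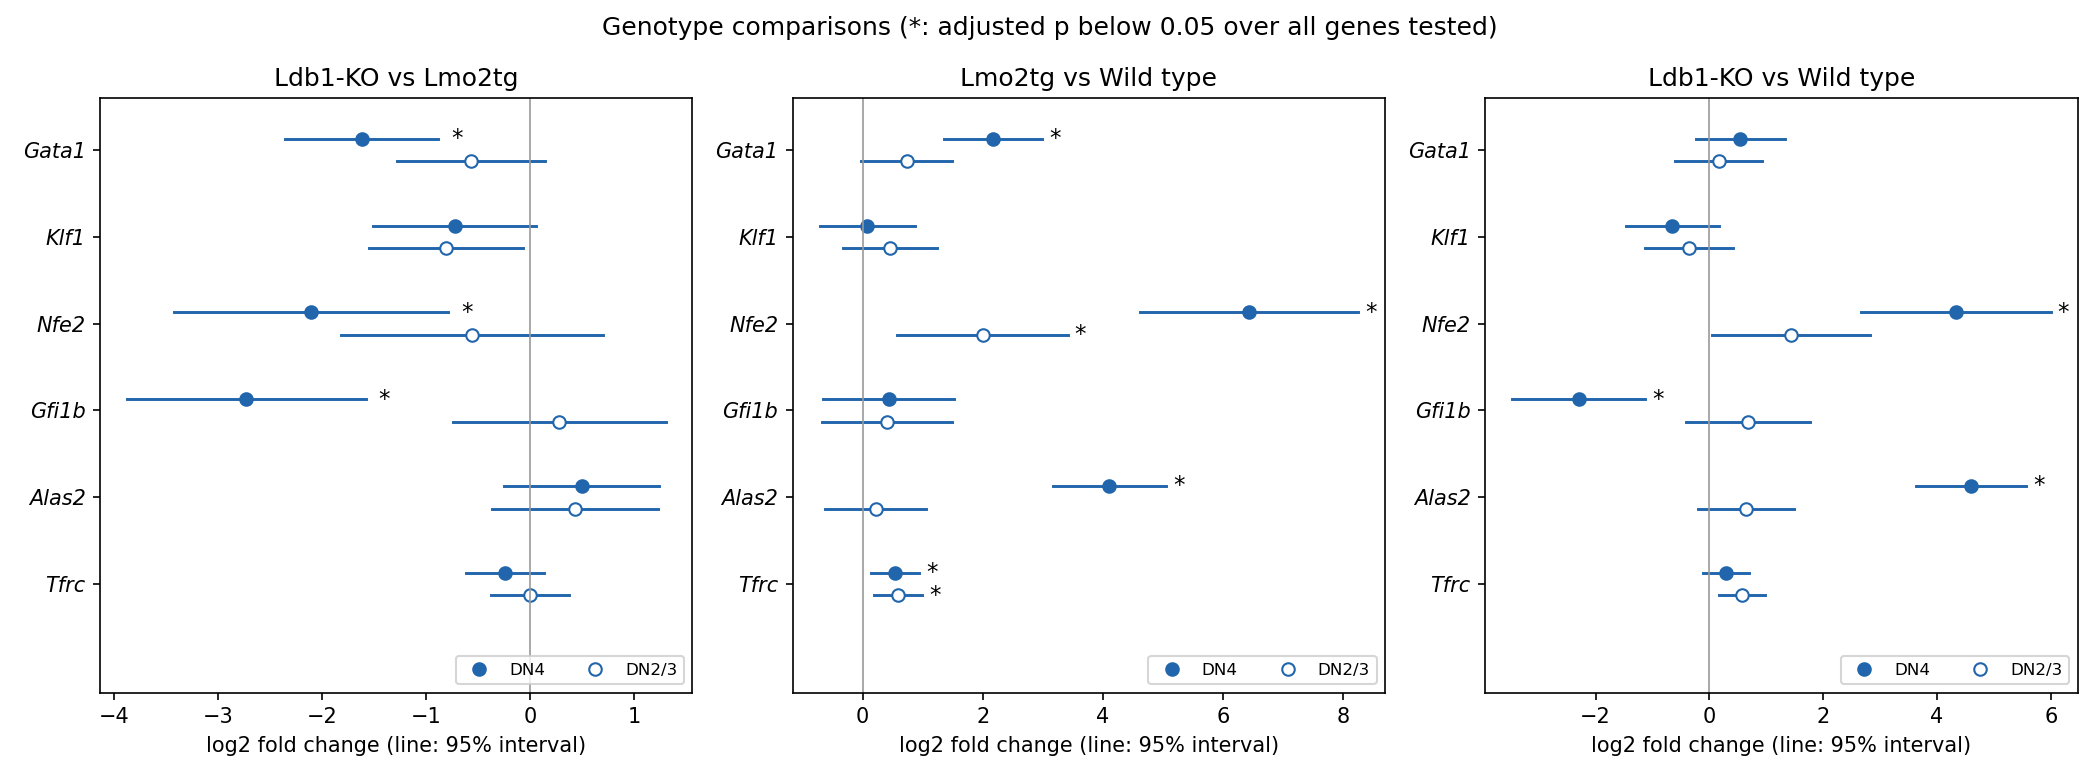
Log2 fold change with 95% interval of the 6 tested genes for Ldb1-KO over Lmo2tg, Lmo2tg over wild type and Ldb1-KO over wild type, with DN4 filled and DN2/3 open and an asterisk at an adjusted p below 0.05. Alas2 at DN4 stands at 0.49 for Ldb1-KO over Lmo2tg and at 4.11 for Lmo2tg over wild type, while Gfi1b stands at -2.73 and 0.43.

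Gata1 lies on the minus strand of chromosome X (GENCODE M21 on mm10, 7959260 to 7978071) and encodes the zinc finger factor that founds the red cell programme. In DN4 it read 1.17, 1.28, 2.62, 1.92 and 1.06 CPM in Ldb1-KO replicates 1 to 5, 4.66, 1.57, 5.52, 2.85 and 10.3 CPM in Lmo2tg replicates 1 to 5, and 0.835, 1.57, 1.28 and 0.723 CPM in wild-type replicates 1 to 4. Lmo2tg replicate 2 sat level with the highest wild-type library and below the highest Ldb1-KO library, so the groups overlap. Values of all genes follow in the same order of replicates. Gata1 fell without Ldb1 by 1.62 on the log2 scale (SE 0.36, 95% interval -2.36 to -0.88), to 32.5% of the Lmo2tg level (adjusted p = 0.0027, edgeR). With the transgene it had been 4.49-fold above wild type, a log2 change of 2.17 (SE 0.39, interval 1.35 to 2.98, adjusted p = 8.82e-05). The rise was called with each library left out (adjusted p up to 8.1e-04) but not in every alternative fit, where the highest adjusted p was 0.0571. The change between Ldb1-KO and wild type was 0.54 (adjusted p = 0.275), so the test did not separate them.

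In DN2/3, Gata1 read 2.82, 5.09, 5.35, 4.36 and 4.36 CPM in Ldb1-KO, 7.49, 5.85, 7.44, 4.20 and 7.61 CPM in the Lmo2tg group, and 4.20, 4.24, 3.98 and 3.32 CPM in wild type. The groups again overlap, with Lmo2tg replicate 4 among the wild-type values, and no genotype test was passed (log2 change -0.57 for Ldb1-KO over Lmo2tg, adjusted p = 0.291, and 0.73 for Lmo2tg over wild type, adjusted p = 0.144, or 0.0211 with only these groups in the fit). The effect of the transgene was larger in DN4 than in DN2/3 by 1.44 (SE 0.52, adjusted p = 0.0441, where 25.6% of all genes passed that test). This difference between stages did not hold when 12 of the 18 libraries were left out singly, with adjusted p up to 0.113. They were Lmo2tg DN4 replicates 1, 3 and 5, wild-type DN4 replicates 1, 3 and 4, Lmo2tg DN2/3 replicates 2 and 4 and all 4 wild-type DN2/3 replicates, and without Lmo2tg DN4 replicate 5 the difference was 0.99.

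Klf1, the activator of the adult beta-globin gene, is on the plus strand of chromosome 8 (84901928 to 84905291) and passed no test between genotypes. It ranged over 0.176 to 0.422 CPM in Ldb1-KO DN4, 0.223 to 0.766 in Lmo2tg DN4 and 0.172 to 0.615 in wild-type DN4, so all 3 groups overlap. In DN2/3 the ranges were 0.206 to 0.664 CPM in Ldb1-KO, 0.645 to 1.14 in Lmo2tg and 0.524 to 0.717 in wild type, with Ldb1-KO replicate 4 above the lowest Lmo2tg library. The log2 change for Ldb1-KO over Lmo2tg was -0.73 in DN4 (adjusted p = 0.217) and -0.81 in DN2/3 (adjusted p = 0.134), and for Lmo2tg over wild type 0.08 and 0.45 (adjusted p = 0.879 and 0.398). Between 65 and 230 counts in a group lie behind these values, and changes of this size could not be told from the spread at this depth.

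Nfe2, the p45 subunit of the NF-E2 factor that acts at globin and platelet genes, is on the minus strand of chromosome 15 (103248212 to 103258403) and had the largest fold range of the 6 tested genes. In DN4 it read 23.8, 1.65, 47.8, 25.4 and 3.18 CPM in Ldb1-KO, 51.4, 17.2, 183, 36.7 and 151 CPM in the Lmo2tg group, and 0.937, 1.29, 1.19 and 0.647 CPM in wild type. Every Lmo2tg and every Ldb1-KO library was above every wild-type library, but Ldb1-KO and Lmo2tg overlap, and Ldb1-KO replicates 2 and 5 came close to wild type. The transgene raised Nfe2 86.7-fold over wild type, a log2 change of 6.44 (SE 0.88, interval 4.62 to 8.25, adjusted p = 2.78e-06). Without Ldb1 it fell to 23.2% of the Lmo2tg level, a log2 change of -2.11 (SE 0.64, interval -3.42 to -0.79, adjusted p = 0.0256). That call was lost without Lmo2tg replicate 3 or 5 or Ldb1-KO replicate 2 or 5, with adjusted p of 0.0503 to 0.0873 and log2 changes of -1.65 to -1.82. Ldb1-KO DN4 was still 20.2-fold above wild type (log2 4.33, SE 0.80, adjusted p = 4.61e-04). That call was kept with each library left out (adjusted p up to 0.00353). It was not kept in every alternative fit, where the highest adjusted p was 0.0561.

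In DN2/3, Nfe2 was already present in wild type: it read 167, 59.6, 100, 85.9 and 99.5 CPM in Ldb1-KO, 174, 57.4, 223, 96.1 and 205 CPM in the Lmo2tg group, and 34.9, 34.8, 40.2 and 41.5 CPM in wild type. All transgenic libraries were above all wild-type ones, and Ldb1-KO and Lmo2tg overlap. Lmo2tg was 3.99-fold above wild type (log2 2.00, SE 0.68, interval 0.58 to 3.41, adjusted p = 0.0281), a call lost without any of the 4 wild-type replicates or without Lmo2tg replicate 3 or 5 (adjusted p 0.0502 to 0.0692). The log2 change was 1.43 for Ldb1-KO over wild type (adjusted p = 0.179, or 0.00151 with only these groups in the fit) and -0.56 for Ldb1-KO over Lmo2tg (adjusted p = 0.584). The transgene effect was larger in DN4 by 4.44 (SE 0.99, adjusted p = 0.00359). Genes used as markers of other cells moved with Nfe2: the summed mast cell and basophil list was 152, 3.16, 370, 198 and 31.3 CPM in Ldb1-KO DN4, 499, 136, 1578, 199 and 888 CPM in Lmo2tg DN4, and 2.21 to 5.82 CPM in wild-type DN4. Nearly all of it was Cpa3 (mean 150, 659 and 3.04 CPM), a protease that early thymic progenitors also express, and 5 of the 12 listed genes (Fcer1a, Tpsb2, Tpsab1, Mcpt4 and Mrgprb2) had no count in any of the 6 groups. The part of other cells in the Nfe2 values was not tested.

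Gfi1b, the repressor of the Gfi family that erythroid and megakaryocytic cells need, is on the minus strand of chromosome 2 (28609450 to 28621982). In DN4 it read 0.0676, 0.0294, 0.571, 0.325 and 0.0623 CPM in Ldb1-KO, 1.16, 0.766, 0.623, 2.54 and 2.00 CPM in the Lmo2tg group, and 0.703, 0.772, 1.52 and 1.18 CPM in wild type. Every Ldb1-KO library was below every Lmo2tg and wild-type library, and Lmo2tg and wild type overlap. Gfi1b fell without Ldb1 to 15.1% of the Lmo2tg level, a log2 change of -2.73 (SE 0.55, interval -3.88 to -1.58, adjusted p = 0.00131), and was at 20.4% of wild type (log2 -2.30, SE 0.56, adjusted p = 0.00436). The transgene itself gave a log2 change of 0.43 (interval -0.66 to 1.53, adjusted p = 0.507). These are low values, 52 counts in all of Ldb1-KO DN4 (4, 2, 34, 10 and 2), 316 in Lmo2tg DN4 and 291 in wild-type DN4.

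In DN2/3 Gfi1b read 1.07, 1.27, 2.03, 3.00 and 1.44 CPM in Ldb1-KO, 0.974, 1.57, 1.48, 2.03 and 1.20 CPM in the Lmo2tg group, and 1.20, 0.743, 1.05 and 1.38 CPM in wild type. The 3 groups overlap, and the log2 change for Ldb1-KO over Lmo2tg was 0.28 (adjusted p = 0.755). The log2 effect of losing Ldb1 was thus -2.73 in DN4 and 0.28 in DN2/3, a difference of -3.01 (SE 0.74, adjusted p = 0.0337). In that test 1.36% of all genes passed, 1.22% with a lower and 0.132% with a higher effect in DN4. That difference was lost without each of 9 of the 20 libraries, with adjusted p up to 0.075 and values of -2.70 to -3.02. They were Ldb1-KO DN4 replicates 1, 2 and 5, Lmo2tg DN4 replicate 5, Ldb1-KO DN2/3 replicates 3 and 4 and Lmo2tg DN2/3 replicates 1, 3 and 5. Without the pair of DN4 libraries highest in Cd4 it was -2.76 (adjusted p = 0.0677). The Ldb1 RNA left in Ldb1-KO also differed between stages, at 25.6 CPM in DN4 and 98.1 in DN2/3, and its part in the difference was not tested.

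The 3 calls for Ldb1-KO over Lmo2tg in DN4 were made in the fit of all 6 groups. When only these 2 groups entered the fit, 5.2% of genes were called, and none of the members was: the adjusted p was 0.0763 for Gata1, 0.214 for Nfe2 and 0.0613 for Gfi1b, at log2 changes of -1.63, -2.11 and -2.73. Within the Ldb1-KO DN4 group the libraries differed in how much Ldb1 RNA remained, 21.4, 6.11, 33.9, 54.6 and 12.2 CPM in replicates 1 to 5. Replicates 2 and 5, lowest in Ldb1, were also lowest in Nfe2 and Gfi1b, and replicates 3 and 4, highest in Ldb1, were highest in Nfe2, Gfi1b and Gata1. Replicate 2 is also the library of this group highest in Cd4, with stage markers at 1106 CPM against 298 to 463 in the other 4. With replicate 2 left aside, replicate 5 was lowest in Ldb1, Nfe2 and Gfi1b, and replicates 3 and 4 were again highest. Alas2 did not follow that order, with its lowest value in replicate 1 (4.21 CPM) and its highest in replicate 5 (28.2 CPM). With 5 libraries this is a description of an order, and no test was made.

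**Figure D3:**
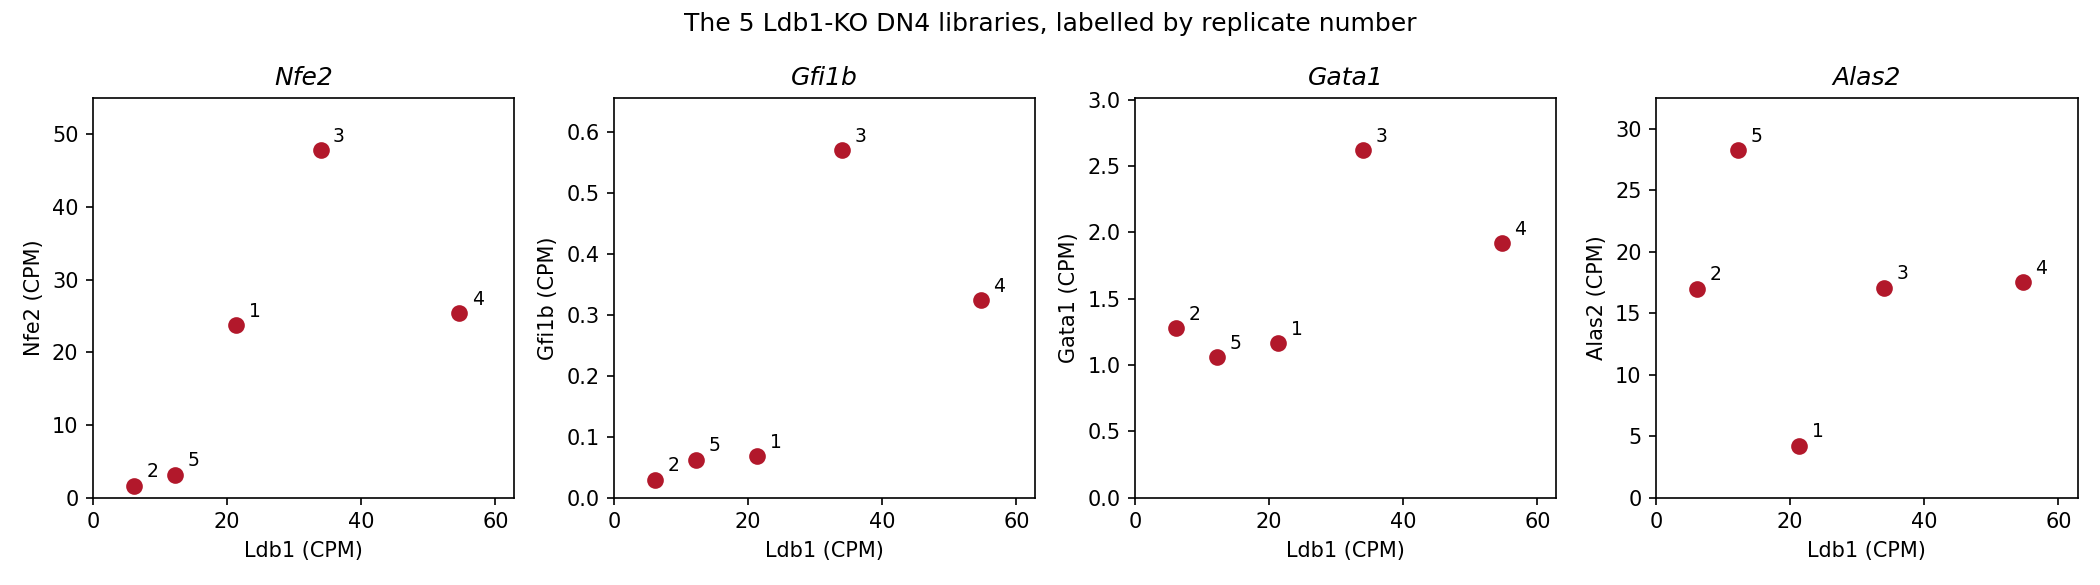
CPM of Nfe2, Gfi1b, Gata1 and Alas2 against CPM of Ldb1 in the 5 Ldb1-KO DN4 libraries, each point numbered by its replicate. Replicates 2 and 5 (6.11 and 12.2 CPM of Ldb1) have the lowest Nfe2 (1.65 and 3.18 CPM), replicate 2 being the library of the 5 highest in Cd4, and Alas2 is highest in replicate 5.

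Alas2, the erythroid form of the enzyme that makes aminolevulinic acid, is on the plus strand of chromosome X (150547375 to 150570638). In DN4 it read 4.21, 17.0, 17.1, 17.5 and 28.2 CPM in Ldb1-KO, 7.93, 14.1, 15.2, 3.52 and 18.9 CPM in the Lmo2tg group, and 0.630, 0.701, 0.666 and 0.761 CPM in wild type. The 4 wild-type libraries lie within a narrow range, every transgenic library is above them, and Ldb1-KO and Lmo2tg overlap widely. Alas2 rose 17.2-fold with the transgene, a log2 change of 4.11 (SE 0.45, interval 3.17 to 5.05, adjusted p = 1.36e-07), and was 24.3-fold above wild type in Ldb1-KO (log2 4.60, SE 0.46, adjusted p = 7.74e-08). Between Ldb1-KO and Lmo2tg the log2 change was 0.49 (SE 0.36, interval -0.25 to 1.24, adjusted p = 0.411). The lower end of that interval is above the log2 changes of Gata1, Nfe2 and Gfi1b in the same comparison. The rise was not seen in DN2/3, where Alas2 read 0.899, 1.55, 1.02, 0.930 and 1.71 CPM in Ldb1-KO, 1.08, 1.11, 0.824, 0.525 and 0.933 CPM in the Lmo2tg group, and 0.819, 0.709, 0.879 and 0.706 CPM in wild type.

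In DN2/3 the Ldb1-KO libraries were all above the wild-type ones by a small margin (log2 0.64, adjusted p = 0.326), and Lmo2tg overlapped both (log2 0.21 over wild type, interval -0.63 to 1.05, adjusted p = 0.745). The transgene effect was larger in DN4 by 3.89 (SE 0.58, adjusted p = 1.29e-04). The effect of losing Ldb1 differed between the stages by 0.06, with a 95% interval of -1.04 to 1.17 (adjusted p = 0.973). The gene body of Alas2 lies within that of Apex2 on the opposite strand, and 311 exon bases, 12.9% of the 2403 of Alas2, are shared. The sources used here do not say whether strand was used in the counting. Apex2 averaged 19.6 CPM in Ldb1-KO DN4, 16.3 in Lmo2tg DN4 and 22.5 in wild-type DN4, and fell with the transgene by 0.47 (adjusted p = 0.00141), the opposite direction to Alas2. In GENCODE M21 no other gene overlaps the remaining 6.

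Tfrc, the receptor that takes up iron-loaded transferrin, is on the plus strand of chromosome 16 (32608920 to 32632794). It read 359, 371, 469, 379 and 333 CPM in Ldb1-KO DN4, 309, 602, 576, 436 and 336 CPM in Lmo2tg DN4, and 282, 330, 294 and 343 CPM in wild-type DN4. Lmo2tg replicates 1 and 5 sat among the wild-type values. Tfrc rose 1.45-fold with the transgene (log2 0.53, SE 0.19, interval 0.13 to 0.93, adjusted p = 0.0238), a call lost without wild-type replicate 1 or 3 or Lmo2tg replicate 2 or 3 (adjusted p 0.0676 to 0.0797). In DN2/3 it ranged over 387 to 490 CPM in Ldb1-KO, 305 to 621 in Lmo2tg and 204 to 335 in wild type. There the rise was 1.5-fold (log2 0.59, SE 0.19, adjusted p = 0.0233) and was lost without wild-type replicate 1 or Lmo2tg replicate 2 or 4 (adjusted p 0.0503 to 0.107). Both calls were also lost when only the 2 groups entered the fit, with adjusted p of 0.0686 in DN4 and 0.0589 in DN2/3. Ldb1-KO differed from Lmo2tg by -0.24 in DN4 (interval -0.62 to 0.14, adjusted p = 0.43) and -0.01 in DN2/3 (interval -0.38 to 0.37, adjusted p = 0.989), and from wild type by 0.29 and 0.58 (adjusted p = 0.251 and 0.0577).

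Slc4a1, the anion exchanger known as band 3, is on the minus strand of chromosome 11 (102348824 to 102366203) and was close to undetected. In DN4 it had 0, 6, 0, 2 and 2 counts in Ldb1-KO, 2, 4, 2, 2 and 4 counts in Lmo2tg, and no count in the 4 wild-type libraries, which over that group allows up to 0.0107 CPM (3 counts), or more if both mates of a pair were counted. All 5 Lmo2tg libraries and 3 of 5 Ldb1-KO libraries held at least 1 count, and no wild-type library did. In DN2/3 the sums were 2 counts in Ldb1-KO, 6 in Lmo2tg and 2 in wild type, each in 1 or 2 libraries. The difference in mean CPM between Lmo2tg and wild-type DN4 gave p = 0.0159 in an exact two-sided permutation test and 0.143 after adjustment over the 9 comparisons of 2 groups, where 0.00794 is the smallest p that 5 against 4 can give. The adjusted values of the other 8 comparisons were 0.214 or higher. Fitted by edgeR's quasi-likelihood test without the filter on low counts, the same comparison passed (adjusted p = 0.0121). In that fit Ldb1-KO over wild type in DN4 passed too (adjusted p = 0.04), and the remaining comparisons did not. With so few counts the difference in Slc4a1 rests on that choice, and every one of its counts is an even number, as most low counts in these libraries are.

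Between stages, in wild type, Nfe2 and Gata1 were lower in DN4 than in DN2/3, where 24.8% of all genes were lower and 21.1% higher. Nfe2 was at 2.67% of its DN2/3 level (log2 -5.23, SE 0.84, adjusted p = 2.95e-05), and Gata1 fell by 1.83 on the log2 scale (SE 0.40, adjusted p = 6.49e-04). In Lmo2tg neither passed the test (log2 -0.78 for Nfe2, adjusted p = 0.418, and -0.40 for Gata1, adjusted p = 0.474), and Alas2 alone was called. It was 13.2-fold higher in DN4 than in DN2/3 (log2 3.72, SE 0.41, adjusted p = 2.55e-06), where 8.32% of all genes were higher and 7.04% lower, and by p-value it ranked 8 of the 14371 genes.

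In Ldb1-KO, Alas2 again was higher in DN4, 13.8-fold (log2 3.78, SE 0.41, adjusted p = 2.68e-07, with 12.3% of all genes higher), while Gfi1b, Nfe2 and Gata1 were lower, where 15.8% of all genes were. Gfi1b was at 12.1% of its DN2/3 level (log2 -3.05, SE 0.56, adjusted p = 2.23e-04), Nfe2 at 19.9% (log2 -2.33, SE 0.64, adjusted p = 0.00791), and Gata1 fell by 1.45 (SE 0.35, adjusted p = 0.0033). For Klf1 the log2 change was -0.86 in Ldb1-KO, -0.94 in Lmo2tg and -0.57 in wild type (adjusted p = 0.0887, 0.0793 and 0.251). Libraries of the same number and genotype deviated together between stages. With that number as a block in a fit of the 2 groups alone, Nfe2 in Lmo2tg was called as well (log2 -1.11, adjusted p = 0.0182), as were Tfrc in wild type (0.20, adjusted p = 0.04) and, in Ldb1-KO, Klf1 (-0.86, adjusted p = 0.0349) and Tfrc (-0.12, adjusted p = 0.0451). The share of all genes called in those fits was 59.7% in Ldb1-KO, 18.2% in Lmo2tg and 69.7% in wild type, against 28.1%, 15.4% and 46.0% without the block.

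**Figure D4:**
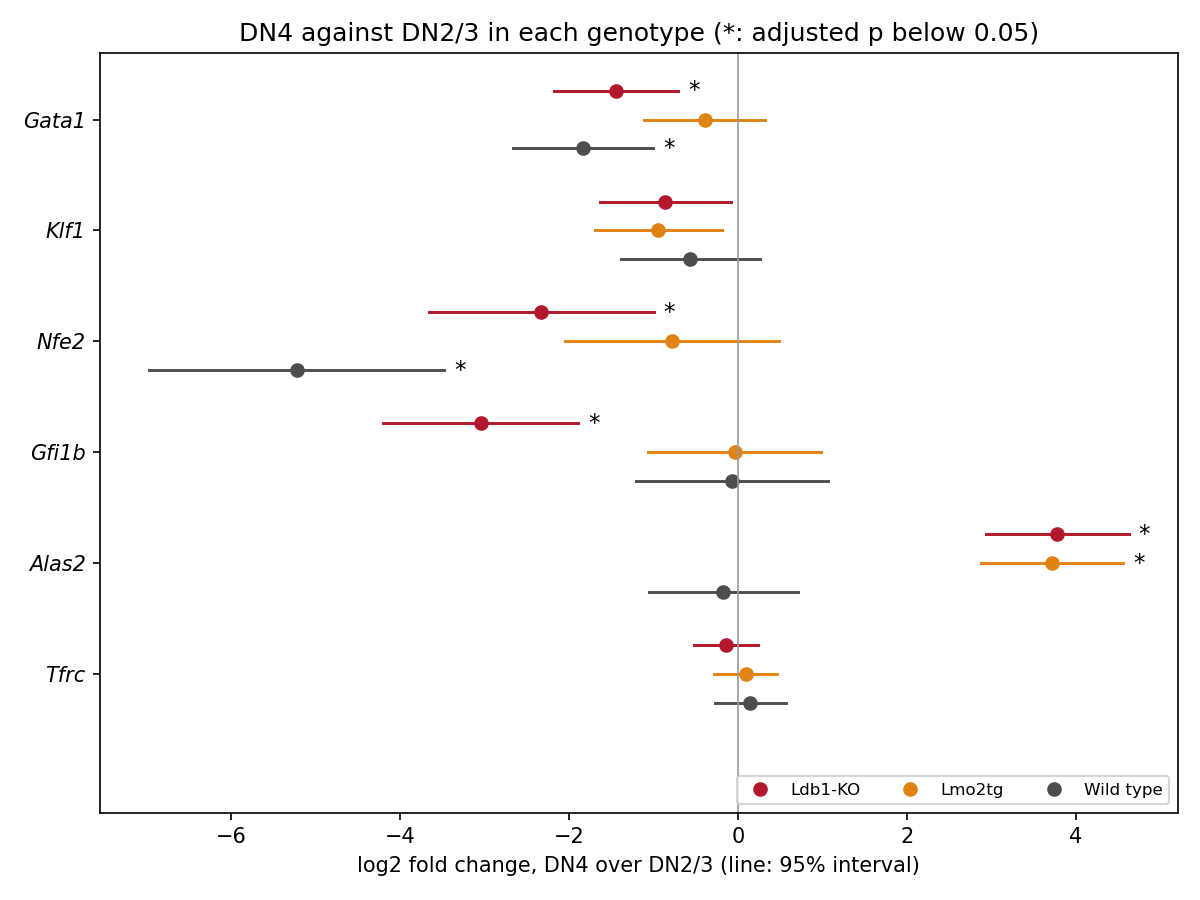
Log2 fold change of DN4 over DN2/3 with 95% interval for the 6 tested genes in Ldb1-KO, Lmo2tg and wild type. Alas2 lies at 3.78 in Ldb1-KO, 3.72 in Lmo2tg and -0.17 in wild type, and Gfi1b at -3.05, -0.04 and -0.07.

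Other genes of the red cell programme were taken from a list of 103, of which 83 could be tested. With the transgene in DN4, 25 rose and 17 fell (50.6% called, against 52.4% of all genes), with a median log2 change of 0.13 against 0.07 for all genes. In DN2/3, 23 rose and 12 fell (42.2% called, against 29.5% of all genes). Without Ldb1, 5 rose and 15 fell in DN4 (24.1% called, against 14.6% of all genes, median -0.15 against -0.02), and 11 rose and 16 fell in DN2/3 (32.5%, against 16.1% of all genes). Between stages in Ldb1-KO, 8 were higher and 29 lower in DN4 (44.6% called, against 28.1% of all genes), and with the replicate block the counts were 24 and 35, where 59.7% of all genes were called.

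Among the partners of the complex, Lyl1, a close relative of Tal1, averaged 9.25 CPM in Ldb1-KO DN4, 39.1 CPM in Lmo2tg DN4 and 0.303 CPM in wild-type DN4, rising by 6.99 on the log2 scale with the transgene (adjusted p = 1.21e-07) and falling by 2.08 without Ldb1 (adjusted p = 0.00848). Of the 13 partners, 5 rose and 1 fell with the transgene in DN4 (46.2% called, against 52.4% of all genes), and 1 rose and 2 fell without Ldb1 (23.1%, against 14.6%). Lmo2 and Ldb1 are on this list, so the transgene is itself among those that rose and the deleted gene among those that fell. Tal1 itself was low, and in DN2/3 it averaged 1.59 CPM in Ldb1-KO, 0.217 CPM in Lmo2tg and 1.26 CPM in wild type: with the transgene the log2 change was -2.48 (adjusted p = 0.00322) and for Ldb1-KO over Lmo2tg it was 2.80 (adjusted p = 0.00165). Gata2, which precedes Gata1 in blood progenitors, averaged 0.0841 CPM per kb in Ldb1-KO DN2/3 and less in the other 5 groups.

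Among 20 other erythroid regulators, of which 19 were tested, 7 rose and 1 fell with the transgene in DN4 (42.1% called, against 52.4% of all genes), and 1 rose and 6 fell without Ldb1 (36.8%, against 14.6%). Sox6, a repressor of embryonic globin genes, rose with the transgene by 6.98 in DN4 (2.10 against 0.0143 CPM, adjusted p = 0.00297) and by 5.76 in DN2/3 (adjusted p = 0.0134). Stat5a, which relays the erythropoietin and cytokine signal, averaged 205 CPM in Ldb1-KO DN4 against 440 in Lmo2tg DN4, lower by 1.10 (adjusted p = 1.38e-05), and in DN2/3 it fell by 1.06 (adjusted p = 1.04e-05). E2f2, a cell cycle factor of red cell precursors, was higher without Ldb1 in DN4 by 0.80 (adjusted p = 0.00216). Bcl11a, a repressor of globin genes that early lymphoid cells use too, was in DN2/3 at 8.50 CPM in Ldb1-KO, 0.352 CPM in Lmo2tg and 16.8 CPM in wild type, lower with the transgene by 5.51 (adjusted p = 6.12e-05) and higher without Ldb1 by 4.53 (adjusted p = 5.93e-04). Klf3, a repressor that Klf1 activates in red cell precursors, followed the same pattern there, -1.18 with the transgene (adjusted p = 5.59e-08) and 0.80 without Ldb1 (adjusted p = 2.08e-05).

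Most other genes of heme synthesis did not rise with Alas2 in DN4. Of 19 other genes of heme making, transport and breakdown, 1 rose and 10 fell with the transgene in DN4, where 28.9% of all genes rose and 23.5% fell. Of the 19, 57.9% were called, against 52.4% of all genes, with a median log2 change of -0.34 against 0.07 for all genes. Alad, the next enzyme of the path, fell by 1.11 (23.4 against 50.2 CPM, adjusted p = 1.02e-04), and the mitochondrial carrier Slc25a39 by 0.93 (65.9 against 126 CPM, adjusted p = 4.51e-04). Alas1, the form of the enzyme that all cells use, fell by 0.77 (adjusted p = 5.71e-06). Per kilobase it averaged 5.26 CPM in Ldb1-KO DN4, 4.26 in Lmo2tg DN4 and 7.27 in wild-type DN4, next to 6.99, 4.97 and 0.287 for Alas2, so in the transgenic DN4 groups Alas2 and Alas1 lay within their spread, and in wild type Alas2 was far below Alas1. The gene that rose was Abcb10, a transporter of the mitochondrial inner membrane (2.63, adjusted p = 1.19e-07). It went down again without Ldb1, 10.7 CPM in Ldb1-KO against 53.4 in Lmo2tg (-2.32, adjusted p = 1.07e-06), and did so in DN2/3 too (-1.97, adjusted p = 3.69e-06). Without Ldb1 in DN4, 2 of the 19 rose, the synthesis enzyme Cpox (0.52, adjusted p = 0.00272) and Blvra, which acts in heme breakdown (0.48, adjusted p = 0.018). Among all genes, 5.85% rose in that comparison.

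**Figure D5:**
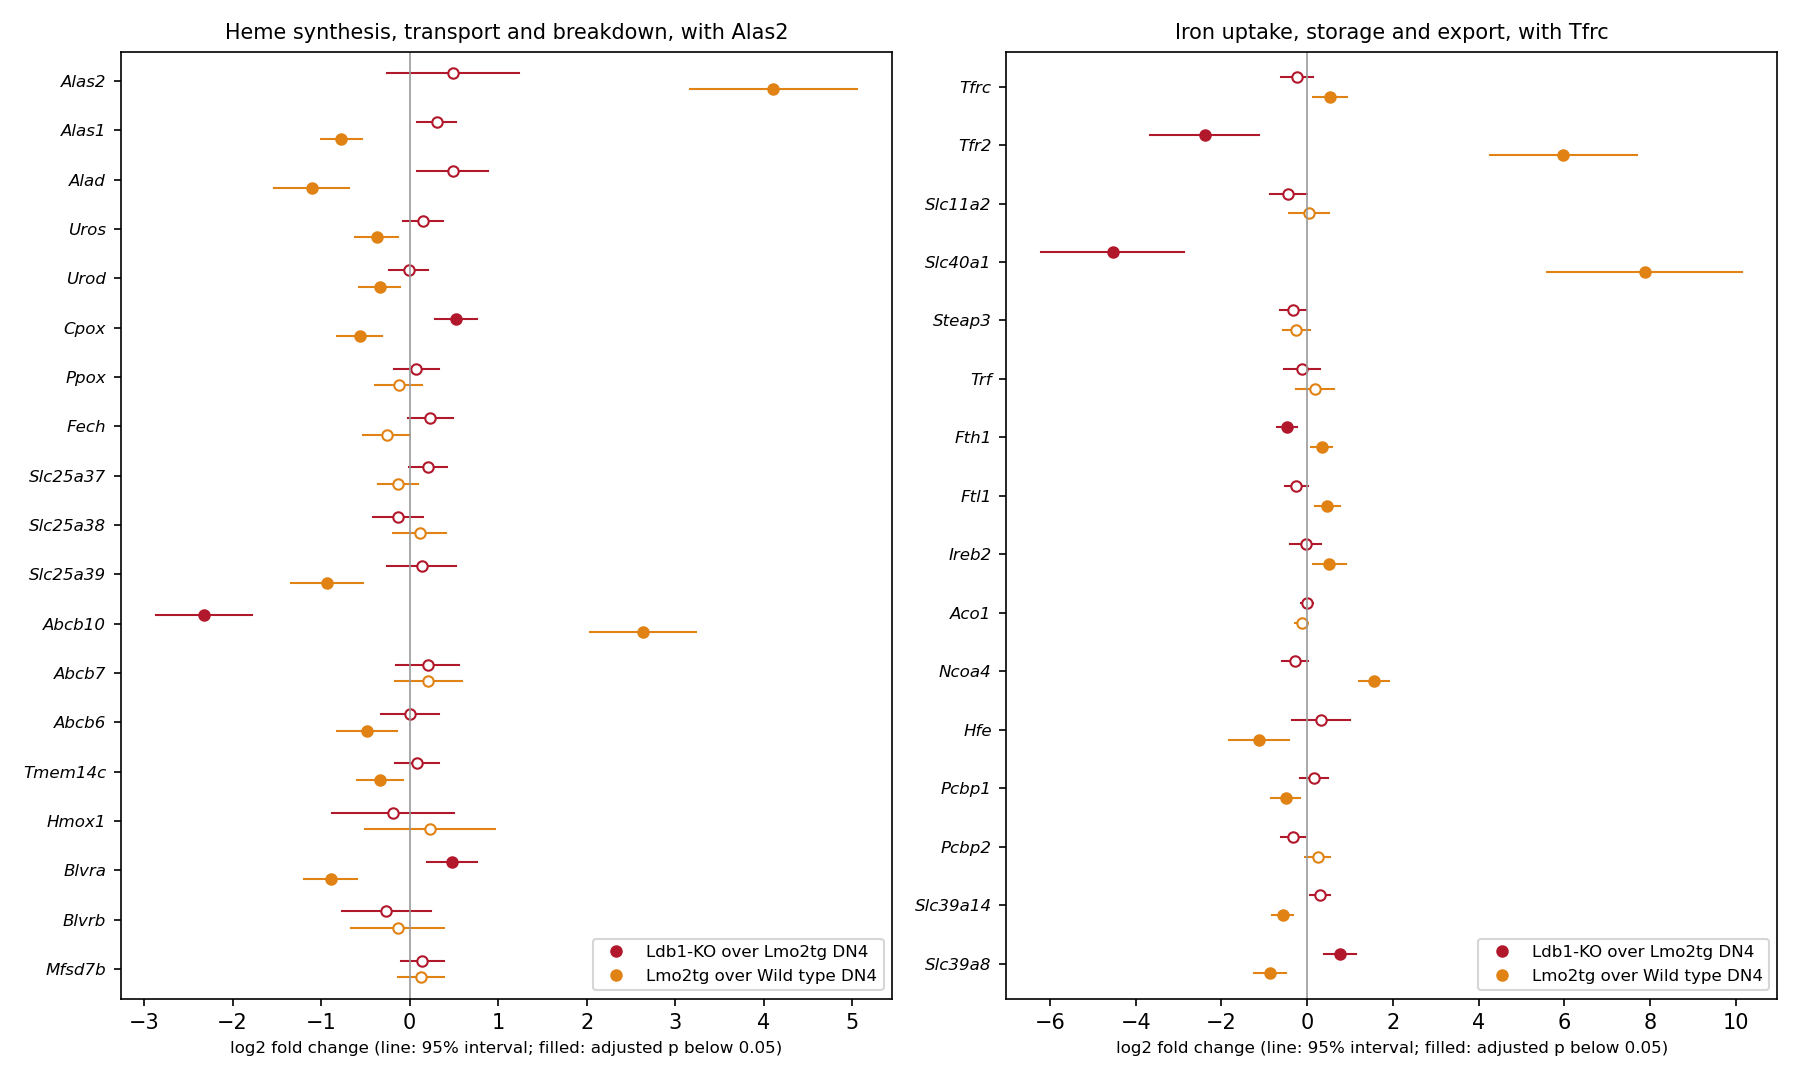
Log2 fold change in DN4 of Alas2 and 18 other heme genes and of Tfrc and 15 other iron genes, red for Ldb1-KO over Lmo2tg and orange for Lmo2tg over wild type, filled where the adjusted p was below 0.05. Abcb10, Tfr2 and Slc40a1 lie to the right for the transgene (2.63, 5.97 and 7.87) and to the left for Ldb1-KO (-2.32, -2.39 and -4.53), while Alas2 lies at 4.11 and 0.49.

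In iron handling, 6 of 15 genes rose and 4 fell with the transgene in DN4 (66.7% called, against 52.4% of all genes), and 1 rose and 3 fell without Ldb1 (26.7%, against 14.6%). Slc40a1, the iron exporter ferroportin, read 0.0676, 0.0881, 0.0672, 1.75 and 0.187 CPM in Ldb1-KO DN4 and 8.90, 3.76, 5.12, 2.44 and 23.7 CPM in Lmo2tg DN4, with a mean of 0.0341 CPM in wild-type DN4. Ldb1-KO and Lmo2tg do not overlap. Ldb1-KO replicate 4, highest in Ldb1, was the highest of its group, while replicate 3, next in Ldb1, was level with replicate 1. Outside replicate 4 the Ldb1-KO values rest on few counts (4, 6 and 6 in replicates 1, 2 and 5). Their order therefore cannot be set beside that of Ldb1. The log2 change was -4.53 without Ldb1 (adjusted p = 3.60e-04) and 7.87 with the transgene (adjusted p = 4.01e-06). In DN2/3 it was -4.05 and 9.66 (adjusted p = 2.68e-04 and 2.81e-07). Tfr2, the second transferrin receptor and a partner of the erythropoietin receptor, averaged 2.42 CPM in Ldb1-KO DN4, 12.7 CPM in Lmo2tg DN4 and 0.202 CPM in wild-type DN4, and it too rose with the transgene (5.97, adjusted p = 3.52e-06) and fell without Ldb1 (-2.39, adjusted p = 0.00905). Per kilobase Tfr2 averaged 2.94 CPM in Lmo2tg DN4, far below the 73.0 of Tfrc.

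Of 23 red cell membrane and cytosol genes, 17 could be tested: 6 rose and 1 fell with the transgene in DN4 (41.2% called, against 52.4% of all genes), and 3 fell without Ldb1 (17.6%, against 14.6%). The blood group gene Kel rose by 3.65 in DN4 (1.44 against 0.114 CPM, adjusted p = 2.97e-05) and by 4.04 in DN2/3 (adjusted p = 1.40e-05), where it fell by 2.70 without Ldb1 (adjusted p = 5.67e-04). Sptb, the beta chain of red cell spectrin, was picked after its values were seen because its pattern is that of Alas2. It read 7.54, 6.30, 3.48, 2.60 and 8.69 CPM in Ldb1-KO DN4 and 5.10, 7.90, 3.43, 0.861 and 4.28 CPM in Lmo2tg DN4, and averaged 0.685 CPM in wild-type DN4 and 0.906, 0.607 and 0.827 CPM in Ldb1-KO, Lmo2tg and wild-type DN2/3. Its rise with the transgene in DN4 was 2.65 (adjusted p = 5.55e-05). Globins could not be tested: of 13 genes listed, 12 are in the table and none passed the filter. The embryonic gene Hbb-y had 20 counts in Lmo2tg DN4, and Hbq1a had 10 counts in Ldb1-KO DN4 and 12 in Lmo2tg DN4.

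The relatives that thymocytes use were far more abundant than Gata1, Gfi1b and Klf1. Per kilobase, Gata3 averaged 35.0 CPM in Ldb1-KO DN4, 46.0 in Lmo2tg DN4 and 33.3 in wild-type DN4, against 0.659, 2.04 and 0.453 for Gata1. It changed in the directions of Gata1 but by less, falling by 0.39 without Ldb1 (adjusted p = 0.0448) and rising by 0.47 with the transgene (adjusted p = 0.00783). Gfi1 averaged 35.1, 44.0 and 40.9 CPM per kb, against 0.115, 0.775 and 0.570 for Gfi1b, and was lower in Ldb1-KO than in Lmo2tg by 0.33 (adjusted p = 0.0122). Among the Klf genes, Klf2 and Klf6 rose with the transgene in DN4 by 2.91 and 2.08, to 37.0 and 36.6 CPM per kb in Lmo2tg against 4.94 and 8.65 in wild type, where Klf1 was at 0.291 and 0.277. Slc4a2, the broadly used anion exchanger, was at 11.03, 10.73 and 10.73 CPM per kb, and Nfe2l2, the stress factor related to Nfe2, at 15.8, 19.8 and 17.4.

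Across the 28 libraries, the genes most like each member were named by Pearson's r of log2 CPM among 11395 genes, a description in which the libraries share stage and genotype. Nfe2 had the closest likenesses, with Bpifc (r = 0.985), Nxpe5 (0.984) and Ctla2a (0.981). Bpifc averaged 9.71, 34.5 and 0.308 CPM in Ldb1-KO, Lmo2tg and wild-type DN4 and 63.2, 86.3 and 16.0 CPM in DN2/3. Aim1 (0.897) and Arhgap20 (0.89) were among the genes most like Alas2. For Gata1 the first was Hif3a (0.932), for Tfrc Hnrnph1 (0.885), for Klf1 Gna12 (0.858) and for Gfi1b Tuba4a (0.795). Among the members, Gata1 and Nfe2 were alike (0.882), Gata1 and Gfi1b less so (0.557), and Alas2 was not like Nfe2 (-0.01) and ran against Klf1 (-0.558) and Gfi1b (-0.556).

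Markers of stage and of other cell types were read beside the members. Of all genes tested, 28.9% rose and 23.5% fell with the transgene in DN4, and 5.85% rose and 8.71% fell without Ldb1. The 5 stage markers, Il2ra, Kit and Cd44 of the earlier stages and Cd4 and Cd8a of later ones, all rose with the transgene in DN4. They summed to 298 to 1106 CPM in Ldb1-KO DN4, 385 to 1321 in Lmo2tg DN4 and 86.3 to 117 in wild-type DN4, and to 1450 to 1750 in wild-type DN2/3, where Il2ra makes up most of the sum. Kit and Cd44, which like Nfe2 and Gata1 were lower in wild-type DN4 than in wild-type DN2/3, also fell without Ldb1 in DN4. Of the 5 stage markers only these 2 were called in that comparison, and Il2ra was not. Kit, the stem cell factor receptor of early thymocytes, averaged 40.2 CPM in Ldb1-KO DN4, 113 CPM in Lmo2tg DN4 and 21.5 CPM in wild-type DN4 (log2 -1.49 without Ldb1, adjusted p = 9.03e-04, and 2.39 with the transgene, adjusted p = 2.82e-06). Cd44 averaged 1.78, 11.4 and 0.906 CPM (-2.68, adjusted p = 1.04e-04, and 3.66, adjusted p = 2.01e-06). Of the 9 B cell markers, 8 rose with the transgene in DN4 and 4 fell without Ldb1, with sums of 14.6 to 23.0 CPM in Ldb1-KO DN4, 13.2 to 98.4 in Lmo2tg DN4 and 11.7 to 15.3 in wild-type DN4. The highest of these was Lmo2tg replicate 1. The eosinophil list summed to 0.187 to 1.12, 2.61 to 5.99 and 0.609 to 2.05 CPM in these groups, and of its 3 tested genes 2 rose with the transgene and 2 fell without Ldb1. The myeloid list summed to 1.59 to 2.82, 1.68 to 10.95 and 0.483 to 0.558 CPM, with 4 of 7 tested genes higher with the transgene and 1 lower without Ldb1. The megakaryocyte list overlapped in all 3 groups (2.45 to 4.45, 2.61 to 4.74 and 2.35 to 4.23 CPM), with Pf4 and Ppbp at 0 in all 6 groups, and of its 4 tested genes 1 rose with the transgene and none was called without Ldb1. Without Lmo2tg DN4 replicate 1 and Ldb1-KO DN4 replicate 2, the calls of Gata1, Nfe2 and Gfi1b between Ldb1-KO and Lmo2tg and those of Gata1, Nfe2, Alas2 and Tfrc between Lmo2tg and wild type were each made again. The part of these cells or stages in the results was not tested.

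The nearest coding genes on each side were read for changes shared with the members. Next to Tfrc, the kinase gene Tnk2, 11079 bases away, rose by more than Tfrc: it averaged 141 CPM in Ldb1-KO DN4, 199 in Lmo2tg DN4 and 93.7 in wild-type DN4 (log2 1.09 with the transgene, adjusted p = 2.33e-04, and -0.50 without Ldb1, adjusted p = 0.0938). In DN2/3 it averaged 75.8, 140 and 45.8 CPM, rising by 1.61 with the transgene (adjusted p = 2.98e-06) and falling by 0.89 without Ldb1 (adjusted p = 0.00246). Rundc3a, 27199 bases from Slc4a1, rose with the transgene in DN4 by 1.29 (adjusted p = 0.0011) and fell without Ldb1 by 0.86 (adjusted p = 0.0389), with means of 4.97, 9.01 and 3.67 CPM. Next to Nfe2, Copz1, 14310 bases away, rose by 0.41 with the transgene in DN4 (adjusted p = 0.00255) and fell by 0.52 without Ldb1 (adjusted p = 6.67e-04), small changes beside those of Nfe2. Hnrnpa1, on the other side at 1519 bases, rose by 0.63 with the transgene (adjusted p = 0.00262) and differed by -0.15 without Ldb1 (adjusted p = 0.588). Next to Gfi1b, Tsc1 fell without Ldb1 by 0.31 (adjusted p = 0.0202), and Gtf3c5 differed by -0.13 (adjusted p = 0.623). Hdac6, nearest to Gata1, passed neither test (-0.26 with the transgene, adjusted p = 0.188, and -0.07 without Ldb1, adjusted p = 0.847). Pfkfb1, 17590 bases from Alas2, fell with the transgene by 0.89 (adjusted p = 0.00443), the opposite direction to Alas2.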

How the data were processed

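Total RNA of the 28 thymocyte samples was made into TruSeq RNA V2 libraries and read as pairs of 101 bases, per the labels' protocols. The authors deposited raw counts per gene symbol, made with STAR 2.5.2a and featureCounts 1.4.6-p3 on mm10 per the submitters' processing notes; no strand setting or handling of mates is given in the sources used here. Odd numbers make up 13.1 to 26.8% of counts of 1 to 20 and 48.7% of counts of 100 or more, so halved counts were an alternative.

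From the counts, CPM were computed on library totals scaled by TMM, and per kilobase on the joined exons of GENCODE M21. The main test was edgeR 4.0.16 (R 4.3.3, limma 3.58.1), quasi-likelihood with robust fitting, over 28 samples in 6 groups, genes filtered by group, for 11 comparisons, with Benjamini-Hochberg adjustment over 14371 genes and calls at an adjusted p below 0.05. Intervals are 95%. Slc4a1, below the filter, had an exact two-sided permutation test of CPM. Intervals and the floor of 3 counts cover counting error and replicate spread as stated, with no molecular identifiers behind them.

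Alternatives were other scalings and filters, DESeq2 1.42.0, fits of only the groups compared, the replicate number as a block, and each library left out. Same-numbered libraries of a genotype deviated together between stages (correlations of 0.153 to 0.332 over 4 pairs in wild type, 0.513 to 0.65 over 5 in Lmo2tg and 0.289 to 0.531 over 5 in Ldb1-KO), so the numbers were taken to pair the stages. Between genotypes they ran from -0.179 to 0.338 and were not.

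All 7 members are named in every group, with up to 6 called genes of the erythroid list per direction in the 4 genotype comparisons of Lmo2tg with wild type and of Ldb1-KO with Lmo2tg (where the group with more had a mean of 1 CPM or more), related genes, neighbours, and genes from the 3 most like each member; some genes that this rule names are not reported here. Members and lists were chosen with earlier results of these data known. Epb41, Epb42 and Flvcr1 were matched by older symbols. Ahsp was not matched.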

Additional observations from a re-analysis of the deposited data

Results flagged for a closer look

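The effect of the transgene (Lmo2tg over wild type) differed between stages by the test of the difference itself for 3 genes, being larger in DN4 than in DN2/3 on the log2 scale by 1.44 for Gata1 (edgeR adjusted p = 0.0441), 4.44 for Nfe2 (adjusted p = 0.00359) and 3.89 for Alas2 (adjusted p = 1.29e-04). The effect of losing Ldb1 (Ldb1-KO over Lmo2tg) differed between stages for Gfi1b, by -3.01 (adjusted p = 0.0337). With 1 library left out at a time, the Gata1 difference was lost in 12 of 18 fits and the Gfi1b difference in 9 of 20. Those of Nfe2 and Alas2 were kept in all 18. The Ldb1 RNA left in Ldb1-KO was also higher in DN2/3 than in DN4.

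Single libraries stood apart from their group for Slc4a1 only: Ldb1-KO DN2/3 replicate 3 had 0.0336 CPM and wild-type DN2/3 replicate 2 had 0.0338 CPM, where the other libraries of each group had none. Each rests on 2 counts. Of 41 groups of values examined, 2 stood out in this way, where chance gives about 1 in 20.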

How the results depend on the processing

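Of 66 results (6 genes in 11 comparisons), the direction and the side of the threshold were kept in 66 with halved counts, 65 with RLE scaling, 64 with total counts, 63 without a filter, 64 with DESeq2, 64 with the replicate block in a fit of all groups, 55 with only the groups compared and 50 with the replicate block in those groups, 54 of 55 with a filter at 1 CPM, 37 of 42 without the 2 DN4 libraries highest in Cd4 and Cd8a (chosen after seeing the data, as were the halved counts), and 651 of 732 leave-one-out fits. The cause of the changes was not tested.

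Directions turned where values were near 0. Tfrc for Ldb1-KO over Lmo2tg in DN2/3 (-0.00599) became 0.00322 with RLE or DESeq2, 0.0722 with total counts, 0.000303 without a filter, 0.00914 with the 1 CPM filter, and 0.0321 and 0.0289 with the replicate block in the groups compared and in all groups. The stage difference in the transgene effect became 0.0705 with total counts and 0.0563 without the 2 libraries for Tfrc (-0.0534), and -0.00212 without a filter and -0.0875 with the block in the groups compared for Gfi1b (0.0303). Without the 2 libraries, Gfi1b between stages in Lmo2tg became 0.0264 and the stage difference in the Ldb1-KO effect of Alas2 -0.0572.

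Fits of only the groups compared gave 0 members called for Ldb1-KO over Lmo2tg in DN4 (3 with all groups), 2 for Ldb1-KO over wild type in DN2/3 (0 with all groups) and 0 for the stage difference of the Ldb1-KO effect (1 with all groups, and 0 without the 2 libraries). For the erythroid list they gave 9 and not 20 for Ldb1-KO over Lmo2tg in DN4, 26 and not 42 for Lmo2tg over wild type in DN4, 20 and not 10 for Ldb1-KO over wild type in DN2/3, 3 and not 19 between stages in Lmo2tg, and 1 and not 3 for the stage difference of the Ldb1-KO effect. The share of all genes called moved in the same direction each time. In that order it went from 14.6% to 5.2%, 52.4% to 37.1%, 9.56% to 22.3%, 15.4% to 2.47% and 1.36% to 0.609%. The list count for that stage difference was 5 with total counts, the 1 CPM filter or halved counts (1.5%, 1.51% and 1.53% of all genes called). It was 8 with DESeq2 (2.72%) and 6 with the replicate block in all groups (1.73%).

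With the replicate block in the groups compared, members called were 2 and not 4 for Lmo2tg over wild type in DN4, 0 and not 3 for Ldb1-KO over Lmo2tg in DN4, 2 and not 0 for Ldb1-KO over wild type in DN2/3, and 2 and not 1 between stages in Lmo2tg. The erythroid list gave 20 and not 42, and 10 and not 20, in the first 2 of these, and 59 and not 37 between stages in Ldb1-KO. Of all genes, 16.4%, 5.2%, 14.5% and 18.2% were called in the comparisons named for the members, in that order. The main fit called 52.4%, 14.6%, 9.56% and 15.4%. Between stages in Ldb1-KO the share was 59.7% with the block and 28.1% in the main fit. Genotype groups share only a number. DESeq2 and the replicate block in all groups each called 1 member for Ldb1-KO over wild type in DN2/3, where 13.3% and 17% of all genes were called. The block changed no other count of stage calls by over 1.5 times.

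Leaving out 1 library gave 3 to 4 members called for Lmo2tg over wild type in DN4 and 0 to 2 in DN2/3, 2 to 3 for Ldb1-KO over Lmo2tg in DN4, 1 to 2 between stages in Lmo2tg, 4 to 5 in Ldb1-KO, 2 to 3 for the stage difference of the transgene effect and 0 to 1 for that of the Ldb1-KO effect, with no change in the other 4. The erythroid list gave 12 to 28 between stages in Lmo2tg, 18 to 29 for Ldb1-KO over Lmo2tg and 18 to 31 for Ldb1-KO over wild type in DN4, 19 to 33 for the stage difference of the transgene effect and 3 to 6 for that of the Ldb1-KO effect. Klf1 between stages passed the test without Lmo2tg DN4 replicate 2 (-1.24, adjusted p = 0.0313) or Ldb1-KO DN2/3 replicate 5 (-1.04, adjusted p = 0.0441). Values that changed sign ran, for Gfi1b, from -0.285 to 0.103 between stages in wild type, -0.358 to 0.151 in Lmo2tg and -0.29 to 0.25 for the stage difference of the transgene effect. They ran for Tfrc from -0.104 to 0.173 for Ldb1-KO over Lmo2tg in DN2/3, -0.0322 to 0.272 between stages in Lmo2tg and -0.179 to 0.126 for the stage difference of the transgene effect, for Klf1 from -0.218 to 0.295 for Lmo2tg over wild type in DN4 and -0.108 to 0.378 for the stage difference of the Ldb1-KO effect, and for Alas2 from -0.182 to 0.311 in that difference. Differences in mean CPM of Slc4a1 ran in DN2/3 from -0.00186 to 0.0163 for Lmo2tg minus wild type, -0.00844 to 0.00671 for Ldb1-KO minus wild type and -0.0163 to 0.000131 for Ldb1-KO minus Lmo2tg, and from -0.0113 to 0 for wild-type DN4 minus DN2/3. Gfi1b in Ldb1-KO DN4, Klf1 and Slc4a1 rest on few counts. Without a filter, edgeR called Slc4a1 in DN4 for Lmo2tg over wild type (adjusted p = 0.0121) and for Ldb1-KO over wild type (adjusted p = 0.04).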
